A study of Mus musculus with 12 samples.

Results

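The comparison described here sets ligated left carotid arteries of mice given 5-aza-2'-deoxycytidine (5Aza) against unligated right carotid arteries of mice given saline, and gives the distance that remained between a treated, disturbed artery and an untreated, undisturbed one. Its members are 6 of the 12 arrays of the series: 5Aza LCA 1, 2 and 4, and saline RCA 1, 2 and 4, named by group and title number. In 5Aza LCA, male C57Bl6 mice had 5Aza at 0.2 mg/kg/day by daily injection into the peritoneum for 21 days, and the left artery was partially ligated for the last 7 of them. In saline RCA, mice had saline in place of the drug, and the right artery was taken on the side that was not operated on, from mice whose left artery had been ligated. The labels give an age of 9 weeks for all samples, and the series description states a younger start. The other 6 arrays were saline LCA 1, 2 and 4 (ligated, saline) and 5Aza RCA 1, 3 and 4 (unligated, 5Aza). The lumens of 3 arteries were rinsed with lysis reagent and pooled for each sample, which enriches its RNA for endothelium. The 2 groups compared differ in drug, in ligation, in surgery and in body side at once, and without a sham-operated or an unligated left artery these cannot be told apart. Nothing in the labels says that pools of a group came from separate batches of mice, so p-values measure only the spread between these pools.

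Partial carotid ligation closes most outflow branches of the artery, and the flow left behind is slow and reverses in direction. Endothelial cells sense the drag of blood on their surface: steady flow keeps up transcription factors such as Klf2 and enzymes such as the nitric oxide synthase Nos3, whereas disturbed flow favours adhesion of leukocytes, the first step of plaque formation. DNA methyltransferases place methyl groups on cytosines of CpG pairs, and methylation of a CpG-rich promoter goes with a silent gene. 5Aza is built into DNA as a cytosine analogue and traps these enzymes, so that methylation is lost as cells divide. The series addressed which flow-sensitive genes also respond to 5Aza.

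Each array detected between 21443 and 23251 of its 45281 probes, and the tests covered 10596 genes. Levels are log2 normalized intensities, each from the brightest probe of the gene, and differences are 5Aza LCA minus saline RCA on the same scale. The number of arrays limits their precision. Saline LCA 1 stood apart from its group: its root mean square log2 difference from saline LCA 2 and 4 was 0.841 and 0.848, against 0.381 between those 2. It has no part in the difference itself but widens the spread that all groups share in the fit, so counts are also given from a fit without the saline LCA group. As markers of the labelled endothelial origin, Pecam1, Egfl7 and Cldn5 had means in saline RCA of 10.90, 10.62 and 9.69. They are examples from 24 listed markers, of which Kdr was detected on 2 saline RCA and 0 5Aza LCA arrays. Markers of other cells were measured beside them. In saline RCA the log2 of summed intensity was 13.95 to 14.01 for 23 endothelial genes. It was 11.50 to 11.94 for 11 fibroblast genes and 10.74 to 11.21 for 10 smooth muscle genes, so the pools also held RNA of these genes.

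At the 5% false discovery rate (adjusted p under 0.05 in limma), 94 of the 10596 genes differed, which is 0.887% of those tested. Of these, 59 (0.557%) were higher in 5Aza LCA, with a median log2 difference of 1.81, and 35 (0.33%) were lower, with a median of -1.33. All 94 had 3 values in 1 group that did not overlap the 3 of the other. Such separation alone was common, with 1308 genes (12.3%) above and 1376 genes (13%) below. Among the 94, 56 were detected on all 6 arrays, 14 of the higher genes were detected on no saline RCA array, and 4 of the lower genes were detected on no 5Aza LCA array. The fit without saline LCA called 194 genes higher (1.83%) and 120 lower (1.13%), and these held all 94. Leaving out a single array gave between 18 calls (without saline RCA 1 or saline RCA 2) and 438 (without saline LCA 1), and 79 of the 94 lost the call in at least 1 of the 12 such fits, at adjusted p up to 0.19, with no change of direction. The plot of differences against level shows these genes among all others.

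**Figure D1:**
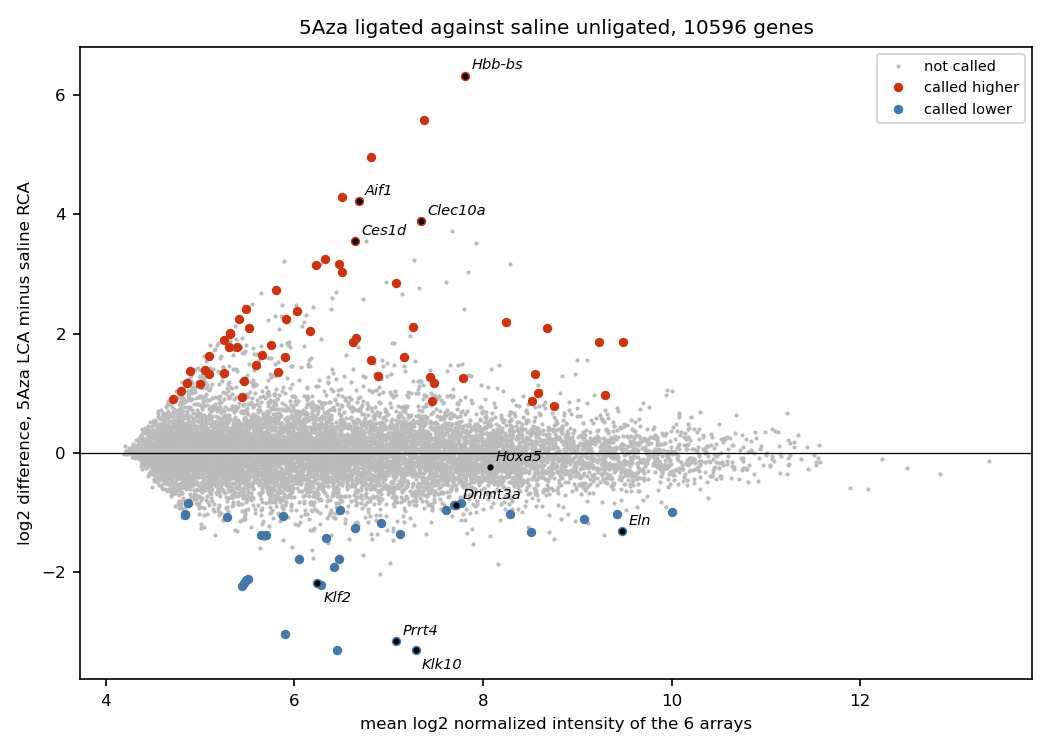
Log2 difference (5Aza LCA minus saline RCA, vertical axis) against the mean log2 normalized intensity of the 6 arrays (horizontal axis) for 10596 genes. Red points are the 59 genes called higher, blue points the 35 called lower, grey points the rest, and 10 genes are named. The largest differences lie above 0, led by Hbb-bs at 6.32.

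Over all genes tested, single 5Aza LCA arrays lay 0.573 to 0.702 from single saline RCA arrays (root mean square log2 difference over 9 pairs, median 0.638). Saline RCA arrays lay 0.457 to 0.482 from each other, and 5Aza LCA arrays 0.48 to 0.565 from each other. All 9 pairs between the groups were thus farther apart than any pair within either group. Unligated 5Aza RCA arrays stood 0.486 to 0.537 from saline RCA, and ligated saline LCA arrays 0.574 to 0.996, with saline LCA 1 at the low end of that range. These distances share arrays and are given without a test. By gene, 1221 genes (11.5%) were called between saline LCA and saline RCA, 48 (0.453%) between 5Aza LCA and 5Aza RCA, and 49 (0.462%) between 5Aza LCA and saline LCA. Between 5Aza RCA and saline RCA limma called 0 genes, with 604 at an unadjusted p under 0.05.

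**Figure D2:**
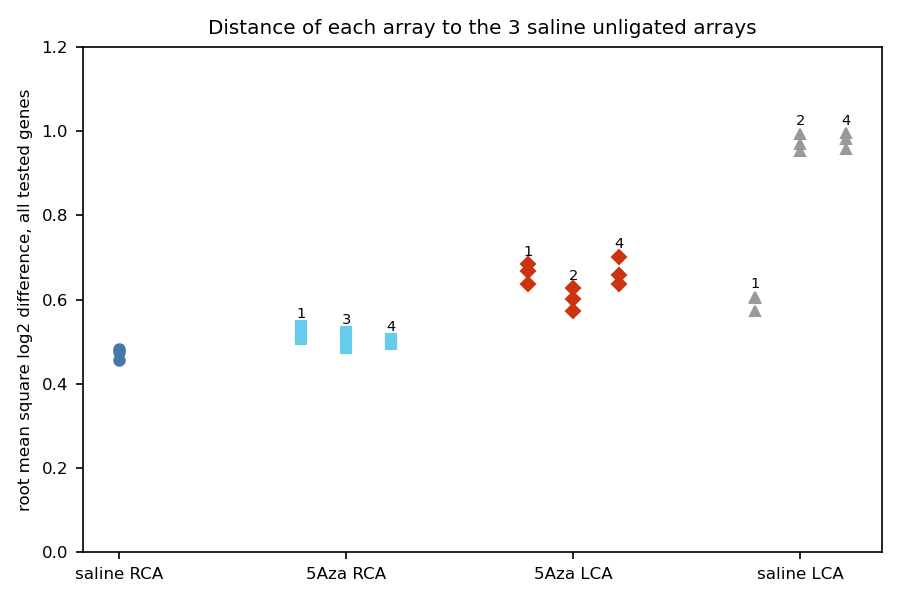
Root mean square log2 difference over 10596 genes (vertical axis) between each array and each of the 3 saline RCA arrays, by group (horizontal axis, with array numbers above the points). The first column holds the 3 pairs among the saline RCA arrays. 5Aza LCA arrays lie between 0.573 and 0.702, above 5Aza RCA arrays and below saline LCA 2 and 4.

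The promoter windows of 4 genes are shown first, because the methylation that the drug lowers falls on CpG pairs. Klk10, Prrt4 and Klf2 are among the 12 genes farthest below the saline unligated level. Hoxa5, which the study described as methylated at its promoter under disturbed flow, stayed near that level. No gene called higher is among the 4, so they do not stand for the called genes as a whole. Each window runs from 250 bases before to 50 bases after the gene's start in RefSeq (GRCm38.p6), 5′ to 3′ on the gene's own strand, with every CpG pair in capitals. Klk10 lies at chr7:43780804-43781103 (plus strand), Prrt4 at chr6:29179535-29179834 (minus), Klf2 at chr8:72318812-72319111 (plus) and Hoxa5 at chr6:52204538-52204837 (minus).
Klk10: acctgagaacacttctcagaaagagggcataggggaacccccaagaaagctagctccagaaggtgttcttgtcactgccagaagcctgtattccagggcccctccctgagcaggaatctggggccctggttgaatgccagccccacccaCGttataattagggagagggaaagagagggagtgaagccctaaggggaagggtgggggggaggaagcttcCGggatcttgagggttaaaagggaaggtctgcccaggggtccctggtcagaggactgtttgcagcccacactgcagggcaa
Prrt4: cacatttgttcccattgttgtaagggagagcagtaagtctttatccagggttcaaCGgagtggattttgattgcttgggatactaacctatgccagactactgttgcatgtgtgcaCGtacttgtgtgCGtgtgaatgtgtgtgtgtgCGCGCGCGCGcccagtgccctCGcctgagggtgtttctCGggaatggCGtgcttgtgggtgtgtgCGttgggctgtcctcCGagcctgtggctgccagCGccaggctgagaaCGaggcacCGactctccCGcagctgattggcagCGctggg
Klf2: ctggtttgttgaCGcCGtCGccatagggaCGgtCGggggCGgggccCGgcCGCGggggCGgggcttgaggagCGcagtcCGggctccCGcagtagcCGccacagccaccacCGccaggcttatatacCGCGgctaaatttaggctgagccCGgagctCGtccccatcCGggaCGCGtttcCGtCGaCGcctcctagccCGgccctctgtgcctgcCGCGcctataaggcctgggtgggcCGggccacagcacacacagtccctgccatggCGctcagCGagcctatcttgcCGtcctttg
Hoxa5: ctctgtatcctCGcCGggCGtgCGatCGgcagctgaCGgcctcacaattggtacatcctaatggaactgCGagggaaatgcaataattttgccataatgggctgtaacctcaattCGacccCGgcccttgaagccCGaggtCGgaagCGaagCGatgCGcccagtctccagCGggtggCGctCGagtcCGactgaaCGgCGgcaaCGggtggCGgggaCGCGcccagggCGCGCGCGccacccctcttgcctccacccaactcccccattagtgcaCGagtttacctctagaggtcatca

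These windows hold 2 CpG pairs in Klk10, 18 in Prrt4, 32 in Klf2 and 29 in Hoxa5. Of all 32851 windows in the table, 14.1% hold fewer than Klk10's, 70.3% fewer than Prrt4's, 90.5% fewer than Klf2's and 87.1% fewer than Hoxa5's. The 8570 tested genes with a window held a median of 21 CpG pairs, and 8.77% of them held fewer than 5. The 39 called higher genes with a window had a median of 9, with 35.9% under 5, and the 27 called lower genes had a median of 16, with 22.2% under 5. Methylation was not measured on these arrays, and the letters of a window say nothing of its state here.

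Of the 59 genes called higher, 4 were among the markers of macrophages and monocytes. Aif1, a calcium-binding protein of macrophages, read 4.28, 4.53 and 4.90 on the saline RCA arrays and 8.71, 8.67 and 9.00 on the 5Aza LCA arrays. The 5Aza LCA arrays were all far above, near saline LCA 1 (8.80) and below saline LCA 2 and 4 (10.41 and 10.35). The difference was 4.23 (SE 0.39, adjusted p = 0.000524), an 18.7-fold ratio, and the call held with each array left out. Other probes of Aif1 gave smaller differences, 2.35 and 1.06. Tyrobp, a signalling adaptor of myeloid receptors, read 4.21, 4.43 and 5.48 against 7.63, 7.79 and 8.42, a difference of 3.24 (SE 0.57, adjusted p = 0.0271). Its highest saline RCA value stayed more than 2 units under its lowest 5Aza LCA value. Fcer1g, the signalling chain of Fc receptors, was detected on no saline RCA array and exceeded them at least 4.54-fold (adjusted p = 0.0498). The beta-glucan receptor Clec7a was higher by 2.09 (SE 0.43, adjusted p = 0.0498).

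Of the 16 macrophage and monocyte markers tested, these 4 were called higher and 0 lower, against 0.557% and 0.33% of all genes. The median difference of the list was 2.35, or 2.19 with undetected genes at their bounds, against -0.01 over all genes. Of the 16, 14 were not detected on all saline RCA arrays and entered the test through another group, which bears on the direction of these counts and medians, so they are a description only. The other members were not called: Laptm5 (3.52, adjusted p = 0.0933), Lyz2 (2.86, adjusted p = 0.166) and Ctss (2.69, adjusted p = 0.054) had the largest of their differences, and Fcgr3 (0.04) the smallest. Members of a list that were not called are named here and below for the size of their differences, a choice made after the values were seen. In the fit without saline LCA, 9 of the 16 were called higher and 0 lower, against 1.83% and 1.13% of all genes. The summed level of the list was 8.29 to 9.81 in saline RCA, 8.59 to 10.12 in 5Aza RCA, 11.39 to 11.96 in 5Aza LCA and 11.53 to 13.43 in saline LCA. Itgam, Cd14 and Ccr2 passed no filter, with 0 of 3 saline RCA arrays detecting each and 1, 1 and 2 of the 5Aza LCA arrays. More macrophages and more of this RNA per cell cannot be told apart in flushed pools, here or for any cell type below. Without single arrays the calls of Tyrobp (without saline RCA 1 or 2 or any 5Aza LCA array), Fcer1g (10 of 12 fits) and Clec7a (9 of 12 fits) were lost, at adjusted p up to 0.122, 0.168 and 0.177.

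Further genes of myeloid cells were called higher. Clec10a, a galactose-type lectin of resident macrophages and dendritic cells, read 4.81, 6.22 and 5.16 in saline RCA and 9.35, 9.12 and 9.37 in 5Aza LCA. The treated ligated arrays were close together and all above the highest control, and the difference was 3.89 (SE 0.76, adjusted p = 0.0404). Mmp12, the macrophage elastase, read 4.25, 4.96 and 5.77 against 7.41, 7.60 and 9.07, a difference of 3.04 (SE 0.52, adjusted p = 0.0258). Lat2, a scaffold of immune receptor signalling, was higher by 2.85 (SE 0.40, adjusted p = 0.00833), although its second probe gave 1.05. H2-Ab1, a chain of the MHC class II molecule that presents antigen, was higher by 2.18 (SE 0.43, adjusted p = 0.0397). It was the sole call among 8 MHC class II and dendritic genes, against 0.557% of all genes. Their median was 1.75, against -0.01 over all genes, and 2 of the 8 were not detected on all saline RCA arrays. The other class II members Cd74 (3.16, adjusted p = 0.0692) and H2-Eb1 (2.44, adjusted p = 0.0535) were not called. Of 11 resident-type macrophage genes only Clec10a was called, against 0.557% of all genes called higher. Their median was 0.99, against -0.01 over all genes. By the probe used, 6 of the 11 were not detected on all saline RCA arrays. Of these, F13a1 and Ms4a7 passed the filter only through 5Aza LCA, so this count and median are a description only. Members lay on both sides, 7 above 0 and 4 below, with Cbr2 at -0.84, Gas6 at -0.53, Stab1 at -0.33 and Lyve1 at -0.03. Leaving out saline RCA 1 ended the calls of Clec10a, Mmp12, Lat2 and H2-Ab1, at adjusted p up to 0.162, 0.121, 0.0572 and 0.165 over all single arrays left out. Lat2 lost its call in no other such fit, and Clec10a and H2-Ab1 each lost it in 8.

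**Figure D3:**
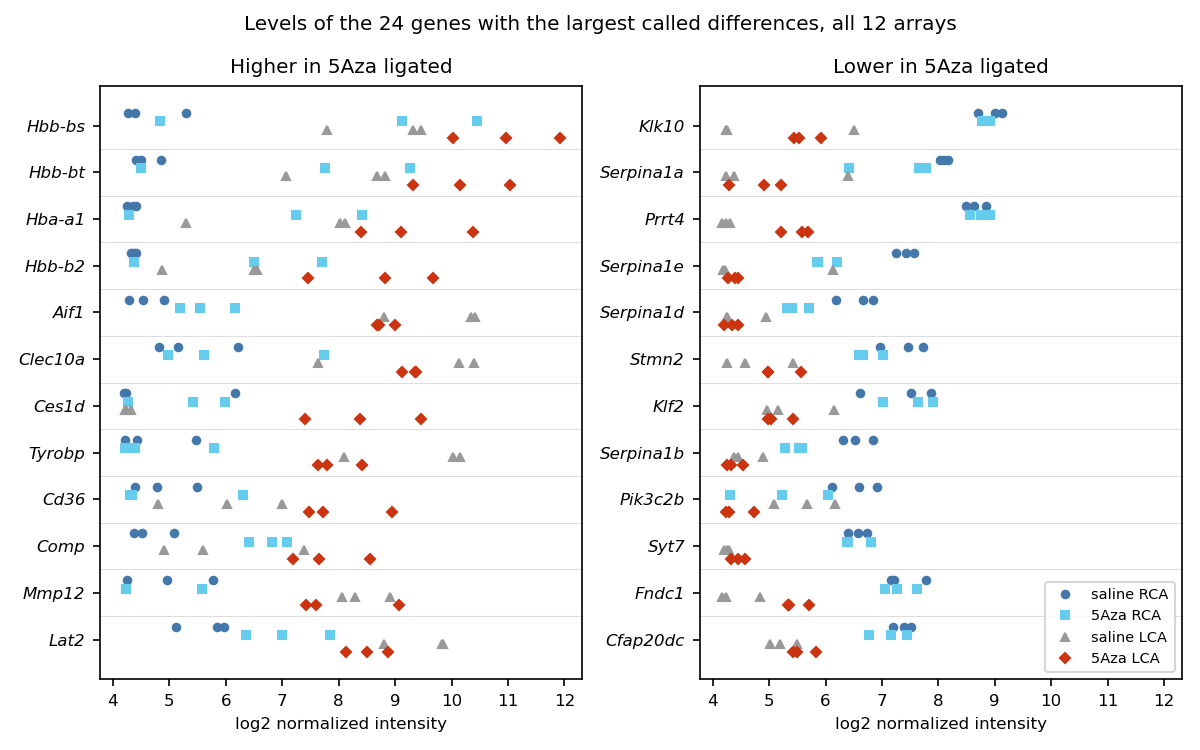
Log2 normalized intensity (horizontal axis) of the 12 called genes with the largest positive (left) and negative (right) differences on all 12 arrays. Each point is 1 array, coloured by group. For every gene the red 5Aza LCA points and the darker blue saline RCA points do not overlap.

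The 4 largest increases were in haemoglobin genes, whose RNA comes from red cells and their precursors. Hbb-bs read 4.27, 4.38 and 5.30 in saline RCA and 11.93, 10.96 and 10.02 in 5Aza LCA, a difference of 6.32 (SE 1.11, adjusted p = 0.0271). Hba-a1 and Hbb-b2 were detected on no saline RCA array and were at least 27.6-fold and 17.7-fold higher (adjusted p = 0.0397 and 0.029). Hbb-bt differed by 5.58 (adjusted p = 0.0258). These genes were not specific to the treated ligated arteries: Hbb-bs read 9.12, 10.45 and 4.83 in 5Aza RCA and 7.79, 9.31 and 9.46 in saline LCA, so that 5 of those 6 arrays exceeded every saline RCA array. Of 6 erythroid and platelet genes tested, Hba-a1 and Hbb-bs were called higher, against 0.557% of all genes. The platelet chemokine Ppbp was not called (3.21, adjusted p = 0.0944), nor were Itga2b (0.05), Gp9 (0.26) and Itgb3 (0.22). By the probe used, 5 of the 6 were not detected on all saline RCA arrays. Ppbp passed the filter only through 5Aza LCA, so the counts and sums of this list are a description only. The list's summed level was 8.62 to 8.91 in saline RCA and 10.83 to 12.62 in 5Aza LCA. The erythroid genes Alas2 and Slc4a1 were each detected on 0 saline RCA and 2 5Aza LCA arrays. Probes of the haemoglobin copies may not tell near-identical genes apart, which was not checked. All 4 calls were lost without any 1 of several arrays, saline RCA 1 among them, at adjusted p up to 0.15.

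The fat cell genes Ces1d and Thrsp were higher in 5Aza LCA than in each of the 3 other groups. Ces1d, a carboxylesterase of fat tissue and liver, read 4.20, 6.17 and 4.23 in saline RCA, 7.41, 8.38 and 9.46 in 5Aza LCA, and 4.32, 4.22 and 4.23 in saline LCA. Only the 5Aza LCA arrays were high, and the highest of the rest was saline RCA 2. The difference from saline RCA was 3.55 (SE 0.61, adjusted p = 0.0258) that from saline LCA 4.16 (adjusted p = 0.0214) and that from 5Aza RCA 3.19 (adjusted p = 0.0491). Thrsp, a regulator of fatty acid synthesis, read 4.28, 4.36 and 4.32 against 5.74, 6.12 and 7.07, was detected on no saline RCA array and was at least 3.5-fold higher (adjusted p = 0.00745). Its adjusted p was 0.00972 against saline LCA and 0.0132 against 5Aza RCA. Thrsp kept its call with each array left out, and Ces1d lost it without saline RCA 1 or 4 or 5Aza LCA 2 or 4, at adjusted p up to 0.121. Both genes passed the detection filter only through 5Aza LCA, so their p-values and kept calls are a description only. Adiponectin (Adipoq), the hormone that defines fat cells, read 4.39, 5.17 and 4.30 in saline RCA and 6.04, 6.83 and 8.44 in 5Aza LCA, and its difference of 2.49 was not called (adjusted p = 0.0562).

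Of 7 adipocyte markers tested, 2 were called higher and 0 lower, against 0.557% and 0.33% of all genes. The list's median difference was 1.99, or 1.87 with bounds, against -0.01 over all genes. Adipoq, Pparg, Ces1d, Thrsp and Car3, 5 of the 7, passed the detection filter only through 5Aza LCA, so the filter itself favoured a positive median and the counts and medians of this list are a description only. Fabp4 (3.03, adjusted p = 0.112) and Car3 (1.87, adjusted p = 0.169) were not called. Lipe (-0.60) was not called either and was the sole member below 0, without overlap with saline RCA. Fabp4 and Lipe, the 2 members detected on all saline RCA arrays, thus went opposite ways. The medians of this list in the other comparisons were -0.15 for saline LCA minus saline RCA, 1.84 for 5Aza LCA minus 5Aza RCA, 2.11 for 5Aza LCA minus saline LCA and 0.28 for 5Aza RCA minus saline RCA. Summed levels were 7.43 to 8.74 in saline RCA, 9.55 to 11.36 in 5Aza LCA, 7.96 to 9.20 in 5Aza RCA and 7.37 to 8.61 in saline LCA. Of the other fat cell markers, Plin1, Cidec and Lep were detected on 1, 2 and 2 of the 5Aza LCA arrays, and Retn on none. Fabp4 is also made by endothelium of small vessels. Whether fat tissue around the artery entered the flushed RNA was not tested.

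Cd36 and Acly, 2 genes of lipid handling outside the fat cell list, were also called. The fatty acid receptor Cd36, present on macrophages, fat cells and capillary endothelium, read 4.40, 5.49 and 4.78 in saline RCA and 7.47, 7.72 and 8.95 in 5Aza LCA, and was higher by 3.16 (SE 0.64, adjusted p = 0.0464). Saline LCA lay between, at 4.80, 6.02 and 6.99. Acly, which makes the acetyl-CoA for lipid synthesis, was higher by 0.97 (SE 0.20, adjusted p = 0.0498). Both were called higher of 14 cholesterol and lipid handling genes, against 0.557% of all genes. The list's median was 0.76, against -0.01 over all genes, with 13 of the 14 above 0. Both calls were lost in 9 and 10 of the 12 fits with 1 array left out, saline RCA 1 and 5Aza LCA 4 among them, at adjusted p up to 0.177. Lpl (3.24, adjusted p = 0.113) and Scd1 (1.31, adjusted p = 0.16) were not called. Scd1, the desaturase that makes monounsaturated fatty acids, lay 3.09 above saline LCA (adjusted p = 0.00972), and there was itself 1.78 below saline RCA. With Mmp12, Cd36 was called higher among 7 markers of foamy macrophages, against 0.557% of all genes. The median of these 7 was 2.58, and 5 of them were not detected on all saline RCA arrays. The 2 that were, Cd9 and Ctsd, differed by -0.21 and 0.09, so this median is a description only. Trem2, another marker of the list, was not tested and was detected on no array of either group.

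**Figure D4:**
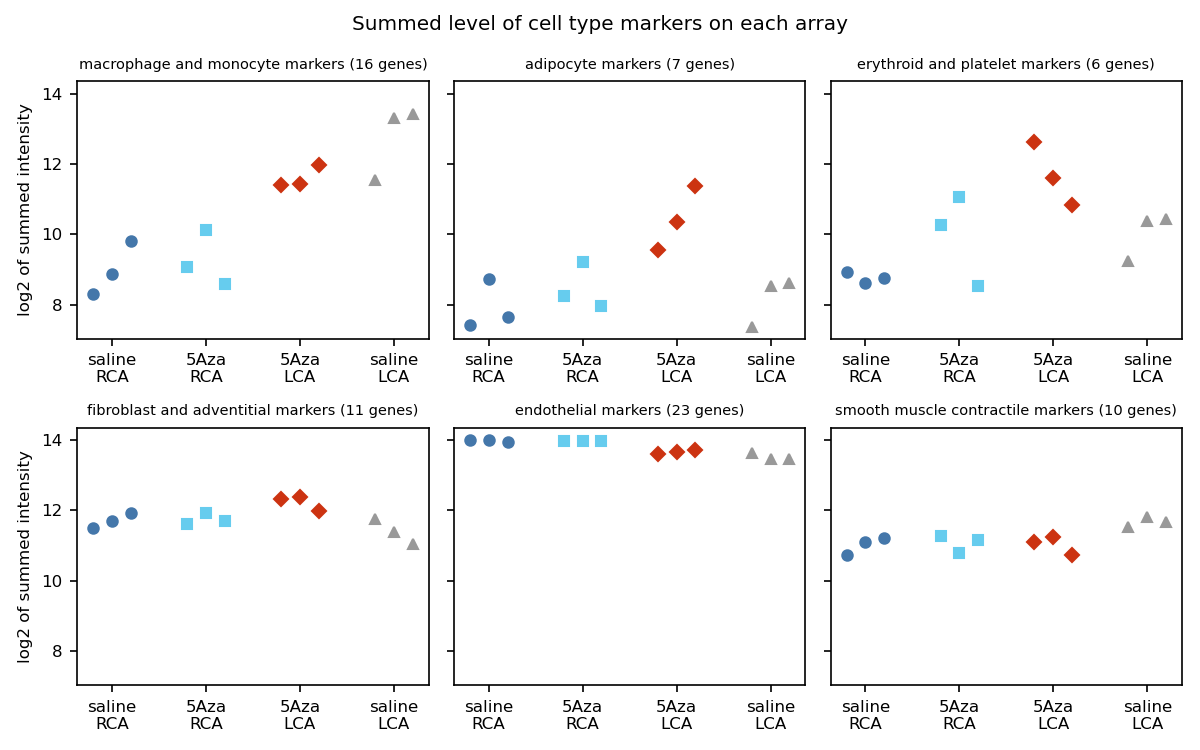
Log2 of the summed normalized intensity of 6 marker lists (vertical axis) on each array, by group (horizontal axis). Each point is 1 array. The adipocyte sums of 5Aza LCA (9.55 to 11.36) lie above those of every other array, its erythroid sums overlap those of 5Aza RCA, the macrophage sums of both ligated groups lie above both unligated groups, and the smooth muscle sum overlaps between saline RCA and 5Aza LCA.

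Further genes were called between 5Aza LCA and saline RCA and lay near or at the limit of detection in both saline groups; they were picked after their values were seen. Cd209f, a lectin of the DC-SIGN family, read 5.79, 5.63 and 6.29 in 5Aza LCA, was detected on no array of saline RCA or saline LCA, and was at least 2.64-fold above saline RCA (adjusted p = 0.00549). Mrap, an accessory protein of the melanocortin 2 receptor, read 5.41, 5.74 and 5.60 and was at least 2.11-fold higher (adjusted p = 0.00549), with no detection in the 9 other arrays. The metalloreductase Steap4 was likewise higher, by at least 2.11-fold (adjusted p = 0.00338). Slit3, a secreted guidance protein, was at least 3.25-fold higher (adjusted p = 0.0114), and Rbp4, a retinol carrier made by liver and fat, at least 3.53-fold (adjusted p = 0.0194). Cd209f, Mrap and Steap4 kept their calls with each array left out, but each lost its call in 2 of the other alternative settings. Slit3 lost its call without saline RCA 1 or 2, and Rbp4 in 5 fits (any saline RCA array, 5Aza LCA 2 or 4), at adjusted p up to 0.0705 and 0.0887. The fits without single arrays reused the genes that passed the detection filter on all arrays. Mrap passed it only through 5Aza LCA and Cd209f through no saline group, so their kept calls are a description only.

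Among genes of matrix and fibroblasts, members went both ways. Col1a1, the main chain of type I collagen, read 5.08, 5.86 and 6.13 in saline RCA and 7.60, 7.92 and 7.12 in 5Aza LCA, a difference of 1.85 (SE 0.33, adjusted p = 0.0299). Comp, a cartilage and vessel wall matrix protein, was higher by 3.14 (SE 0.54, adjusted p = 0.0258), its second probe by 0.75. Comp was not low in unligated treated arteries, which read 7.08, 6.83 and 6.40 against 4.37, 5.09 and 4.52 in saline RCA (difference 2.11, adjusted p = 0.608). Col1a1 was the sole call among 11 fibroblast markers, against 0.557% of all genes called higher. Their median was 1.00, against -0.01 over all genes. Lum (2.20, adjusted p = 0.063), Dcn (1.56, 0.0789) and Pdgfra (1.80, 0.176) were not called. Col1a2 lay at 0.07, and of the 11 markers 9 lay above 0 and 2 below, Mfap5 (-1.26) and Pi16 (-0.23). The fit without saline LCA called Lum, Dpt and Col1a1 higher and Mfap5 lower, against 1.83% and 1.13% of all genes. The calls of Col1a1 and Comp were lost without saline RCA 1 or 2 or 5Aza LCA 1 or 2. Col1a1's was also lost without 5Aza LCA 4 and Comp's without saline RCA 4, at adjusted p up to 0.121 over all these fits.

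Eln and Fndc1 were called lower. Eln, which encodes elastin, read 9.85, 10.44 and 10.10 in saline RCA and 9.25, 8.33 and 8.87 in 5Aza LCA. The 5Aza LCA arrays were all lower, by 1.31 on average (SE 0.24, adjusted p = 0.034), and saline LCA read 8.61, 9.02 and 8.77. Fndc1, a fibronectin domain protein, was lower by 1.91 (SE 0.25, adjusted p = 0.00549), with 5Aza LCA (5.71, 5.36 and 5.33) above saline LCA (4.85, 4.16 and 4.23, adjusted p = 0.0878 for that difference). Of 23 matrix genes, Eln and Fndc1 were the 2 called lower and 0 were called higher, against 0.33% and 0.557% of all genes. The list's median was -0.14, against -0.01 over all genes, with 11 above 0 and 12 below. Lox, the enzyme that crosslinks elastin and collagen, was chosen after its value was seen and was lower by 1.33 (adjusted p = 0.034). Fndc1 kept its call with each array left out, and Eln lost it in 6 of 12 fits (each saline RCA array, 5Aza LCA 2 or 4, 5Aza RCA 1), at adjusted p up to 0.135. Lox lost its call without any saline RCA array or 5Aza LCA 2 or 4, at adjusted p up to 0.148.

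Genes that steady flow maintains remained low in part. Klk10, a secreted serine protease of arterial endothelium, read 9.00, 9.12 and 8.70 in saline RCA and 5.91, 5.44 and 5.54 in 5Aza LCA, where the 3 values were close together and more than 2 units under every control. The difference was -3.31 (SE 0.47, adjusted p = 0.00896), a 9.93-fold ratio. Saline LCA read 6.50, 4.26 and 4.24 and 5Aza RCA 8.85, 8.92 and 8.77. Klf2, a transcription factor that steady flow induces, read 7.88, 7.52 and 6.62 in saline RCA and 5.42, 4.98 and 5.04 in 5Aza LCA, lower by 2.19 (SE 0.38, adjusted p = 0.0267). Against saline LCA, 5Aza LCA differed by 0.63 for Klk10 (adjusted p = 0.494) and by -0.28 for Klf2 (adjusted p = 0.734). Klk10 lost its call without saline RCA 1 or 2 or 5Aza LCA 2, and Klf2 without those or 5Aza LCA 4, at adjusted p up to 0.0625 and 0.121.

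Klk10 and Klf2 were the 2 called lower among 23 flow-maintained genes and 0 were called higher, against 0.33% and 0.557% of all genes. The list's median difference was -0.22, against -0.01 over all genes. Nos3 read 8.32, 8.69 and 8.57 in saline RCA and 7.38, 7.28 and 7.07 in 5Aza LCA without overlap, and its difference of -1.28 was not called (SE 0.38, adjusted p = 0.16). Klf4, a relative of Klf2, differed by -0.49 (adjusted p = 0.486). Thbd differed by -0.07 (95% interval -0.72 to 0.58) and Itpr3 by 0 (-0.43 to 0.43), whereas Cyp1b1 at -0.20 had an interval that reached from -1.29 to 0.88. The same list had a median of -1.20 in saline LCA minus saline RCA and 0.76 in 5Aza LCA minus saline LCA, comparisons that share arrays with this one. In the fit without saline LCA, 5 of the 23 were called lower (Klf2, Nos3, Klk10, Tek and Dhh) and 1, Fabp4, higher. That fit called 1.13% of all genes lower and 1.83% higher.

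The smallest adjusted p values belonged to decreases. Prrt4, a proline-rich transmembrane protein, read 8.63, 8.85 and 8.49 in saline RCA and 5.70, 5.59 and 5.21 in 5Aza LCA. All 3 treated ligated arrays were low, by 3.16 on average (SE 0.18), and this was the smallest adjusted p of the comparison (1.17e-05). Prrt4 read 4.30, 4.23 and 4.17 in saline LCA, where no array detected it, so that 5Aza LCA lay above saline LCA (adjusted p = 0.0214) and below saline RCA. Syt7, a calcium sensor of vesicle release, read 6.74, 6.58 and 6.39 in saline RCA and 4.33, 4.45 and 4.58 in 5Aza LCA (difference -2.12, SE 0.17, adjusted p = 0.000276). Other probes of Syt7 gave -1.56 and -0.35. Stmn2, a tubulin-binding protein of neurons, was lower by 2.21 (SE 0.31, adjusted p = 0.00812), its second probe by 0.89. Prrt4 and Syt7 kept their calls with each array left out, and Stmn2 lost its call without saline RCA 1 or 2 (adjusted p up to 0.0572). Cfap20dc (-1.79, adjusted p = 0.00386) and the lipid kinase Pik3c2b (-2.13, adjusted p = 0.0367) completed the largest decreases, and Pik3c2b lost its call in 8 of 12 fits, saline RCA 1 left out among them, at adjusted p up to 0.146.

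All 4 Serpina1 genes among the largest decreases encode copies of alpha-1-antitrypsin, the inhibitor of neutrophil elastase, and lie on chromosome 12. Serpina1a read 8.16, 8.11 and 8.03 in saline RCA, 5.22, 4.28 and 4.91 in 5Aza LCA and 7.66, 6.42 and 7.79 in 5Aza RCA, with a difference of -3.30 (SE 0.52, adjusted p = 0.0182). Serpina1b differed by -2.18 (adjusted p = 0.000524), its other probes by -1.01 and -0.85, and the second Serpina1a probe by -3.33. Serpina1e and Serpina1d were detected on no 5Aza LCA array and were at least 7.55-fold and 4.19-fold lower (adjusted p = 0.00681 and 0.00169). Unligated 5Aza RCA arrays were intermediate for all 4: Serpina1e read 7.26, 7.43 and 7.56 in saline RCA, 5.86, 6.21 and 5.87 in 5Aza RCA and 4.45, 4.40 and 4.27 in 5Aza LCA. The step from saline RCA to 5Aza RCA was not called for any of them (adjusted p 0.438 to 0.982). These copies are nearly identical, and whether the probes tell them apart was not checked, so the 4 values may not be separate measurements. Serpina1b, d and e kept their calls with each array left out, and Serpina1a lost its call without saline RCA 1 or 2 or 5Aza LCA 2 or 4 (adjusted p up to 0.0887).

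Of 23 endothelial markers, 1 was called lower (Icam2, an adhesion molecule of resting endothelium: 9.82, 10.18 and 9.81 against 8.89, 8.88 and 8.95, difference -1.03, SE 0.19, adjusted p = 0.034) and 0 higher. Over all genes, 0.33% were called lower and 0.557% higher. The list's median was -0.32, against -0.01 over all genes, with 19 of 23 below 0. Of the 23, 10 lay below saline RCA without overlap, against 13% of all genes, 2 lay above, and 7 had an unadjusted p under 0.05. The fit without saline LCA called 3 lower (Tek, Icam2 and Mmrn2), against 1.13% of all genes. The list's summed level was 13.95 to 14.01 in saline RCA and 13.60 to 13.71 in 5Aza LCA, without overlap, while macrophage, fat cell and haemoglobin sums were higher. Their part in the lower endothelial values was not tested. Pecam1 differed by -0.25, Cdh5 by -0.37, Tek by -0.91 (adjusted p = 0.0717) and Vwf by -0.31. Icam2 lost its call in 8 of 12 fits, those without any saline RCA or 5Aza LCA array and without saline LCA 2 or 5Aza RCA 1 (adjusted p up to 0.135). limma called none of the 10 smooth muscle genes tested (median -0.05), none of 3 neutrophil genes and none of 2 T and NK cell genes, with 0 at an unadjusted p under 0.05 in each of these lists, and no B cell or thyroid gene passed the filter. Of 9 skeletal muscle genes only Tnni2 was tested, detected on all 3 arrays of 5Aza LCA and of saline LCA and on 0 of saline RCA. It was not called but had an unadjusted limma p under 0.05, with a difference of 1.42. Tnni2 read 4.75, 4.95 and 7.36 in 5Aza LCA against 4.26, 4.30 and 4.24 in saline RCA, so that 5Aza LCA 4 stood well above the rest. Of the untested members, Acta1, Myh4, Myh1, Tnnt3 and Mb were each detected on 1 5Aza LCA and 0 saline RCA arrays. Mylpf was detected on 2 and 1, Actn3 on 2 and 2, and Ckm on none.

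**Figure D5:**
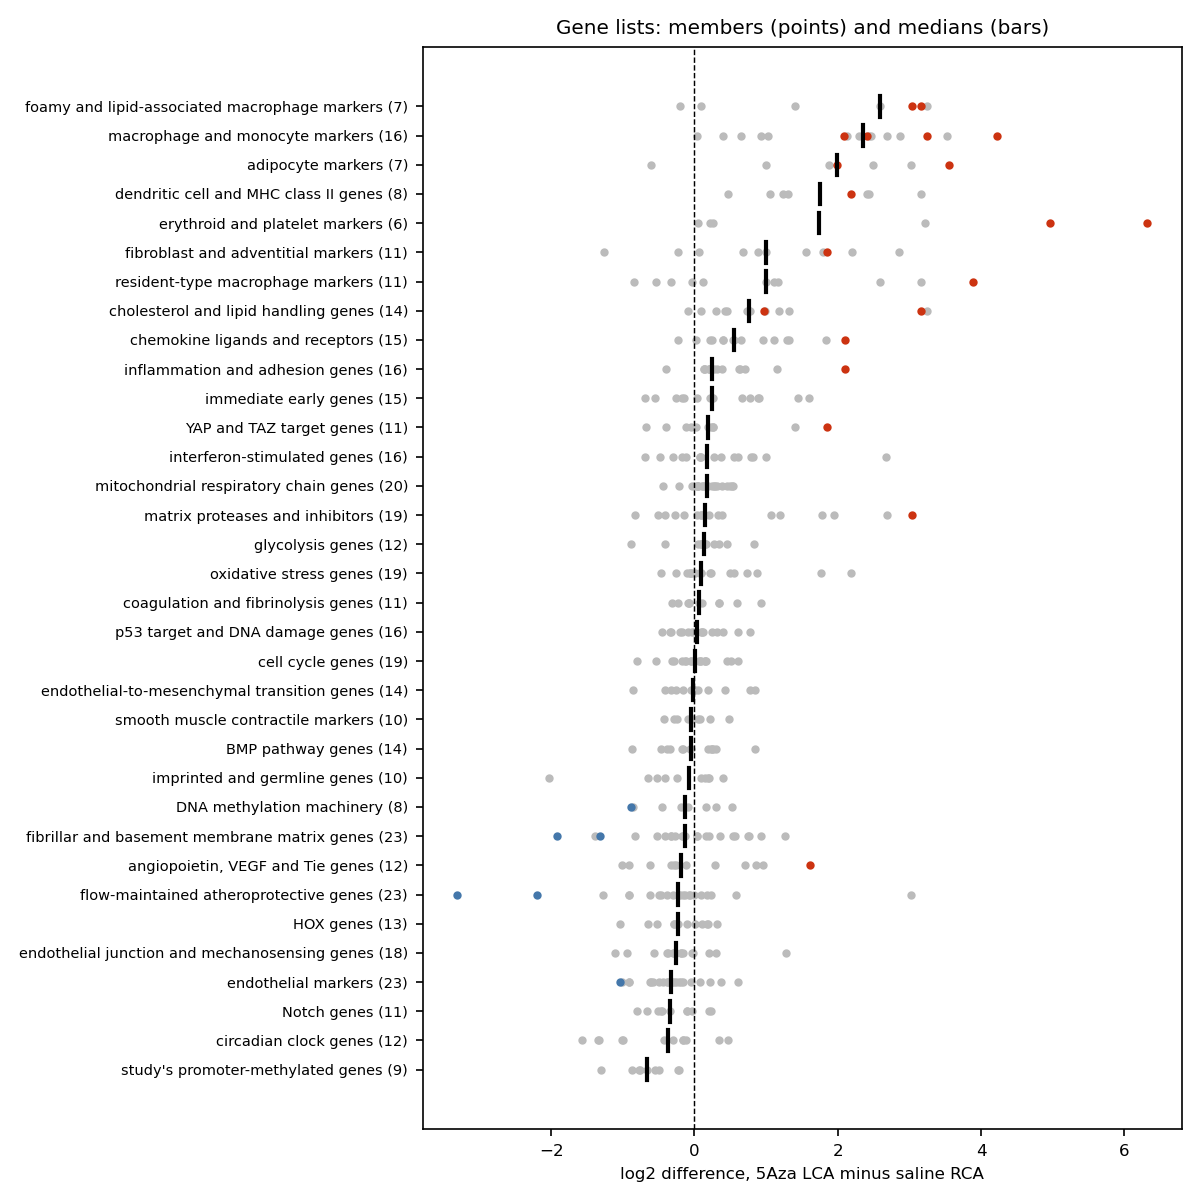
Log2 difference (5Aza LCA minus saline RCA, horizontal axis) of every tested member of each gene list with at least 5 tested members (rows, number tested in brackets). Red and blue points are genes called higher and lower, grey points the rest, black bars the list medians and the dashed line the median of all genes. Bars for foamy macrophage (2.58), macrophage (2.35) and adipocyte (1.99) markers lie farthest right, and many members of these lists passed the detection filter only through groups other than saline RCA.

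Signals of the vessel wall contributed single calls. Angpt2, a ligand that opposes Tie2 signalling in endothelium, read 6.29, 6.40 and 6.39 in saline RCA and 7.60, 7.64 and 8.68 in 5Aza LCA (difference 1.61, SE 0.30, adjusted p = 0.0344), against 8.93, 9.14 and 9.02 in saline LCA. Ccn2, a matricellular protein induced through YAP and TAZ, was higher by 1.85 (SE 0.33, adjusted p = 0.0271). It was the sole call of 11 YAP and TAZ target genes, against 0.557% of all genes. Cxcl12, the ligand of Cxcr4, was higher by 2.09 (SE 0.32, adjusted p = 0.0136). It was the sole call among 16 inflammation and adhesion genes and among 15 chemokine genes, against 0.557% of all genes. Of the 15 chemokine genes, 10 were not detected on all saline RCA arrays. Ccl8, Cxcl14 and Cx3cr1 passed the filter only through 5Aza LCA, so the chemokine count is a description only. Other probes of Cxcl12 gave 1.98, 1.40, 1.26 and 0.50, and the second probes of Angpt2 and Ccn2 gave 1.14 and 2.46. The adhesion molecules of activated endothelium were not called: Vcam1 differed by 0.28, Icam1 by 0.13, Selp by 0.13 and Sele by 0.71. Angpt2 lost its call in 7, Ccn2 in 5 and Cxcl12 in 3 of the 12 fits with 1 array left out, among them those without saline RCA 1 or 2, at adjusted p up to 0.14, 0.121 and 0.0802.

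The targets of the drug were measured too. Dnmt3a, a methyltransferase that sets new methylation, read 8.33, 7.95 and 8.19 in saline RCA and 7.20, 7.32 and 7.30 in 5Aza LCA. It was lower by 0.88 (SE 0.17, adjusted p = 0.0346), its second probe by 0.25. Saline LCA read 7.40, 7.05 and 7.31, within 0.02 of 5Aza LCA on average, and 5Aza RCA 8.15, 7.98 and 7.99. Dnmt1, which copies methylation at replication, differed by 0.16 (adjusted p = 0.682). Dnmt3a was the sole call of 8 genes of this machinery, against 0.33% of all genes called lower. Its call was lost without any array of saline RCA, 5Aza LCA or 5Aza RCA, at adjusted p up to 0.151. None of the 10 imprinted and germline genes tested was called (median -0.07), of which 7 were detected on all 3 saline RCA arrays, nor was any of 13 HOX genes, 16 p53 target genes or 16 interferon-stimulated genes by limma. At an unadjusted p under 0.05 stood 2 imprinted and germline genes, 2 HOX genes, 1 p53 target and 4 interferon-stimulated genes. No member was called either in 10 further lists of 11 to 20 tested genes (Notch, BMP, junctions, immediate early, clock, oxidative stress, glycolysis, respiratory chain, coagulation and endothelial-to-mesenchymal transition), with 2 to 6 members of each at an unadjusted p under 0.05. The fit without saline LCA called Igf2 (-2.03, adjusted p = 0.0205), the clock genes Per3 and Bhlhe40 and the junction gene Jam2 lower, and the immediate early genes Fosb and Myc, the oxidative stress genes Cybb and Txnrd1 and S100a4 of the transition list higher. That fit called 1.83% of all genes higher and 1.13% lower. Of the 12 clock genes, 10 lay below 0, with a median of -0.36, against -0.01 over all genes.

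The 9 genes recalled from the study as methylated at promoters under disturbed flow were chosen on samples of this kind, so their direction is not independent evidence. limma called none between 5Aza LCA and saline RCA, with 3 at an unadjusted p under 0.05. All 9 differences were below 0, with a median of -0.66, against -0.01 over all genes. Hoxa5, a homeobox transcription factor, read 8.13, 8.19 and 8.24 in saline RCA, 7.95, 8.04 and 7.87 in 5Aza LCA and 7.05, 6.54 and 6.79 in saline LCA. The treated ligated arrays sat just under the controls and well above the untreated ligated ones. Hoxa5 differed from saline RCA by -0.23 (95% interval -0.70 to 0.24, adjusted p = 0.666) and from saline LCA by 1.16 (adjusted p = 0.0478). Pkp4, a junction protein, lay at -0.22 (-0.76 to 0.32). Farther from the control level were the BMP receptor Acvrl1 at -0.87 (-1.37 to -0.36, adjusted p = 0.117), the membrane protein Tmem184b at -0.76 (-1.28 to -0.24, adjusted p = 0.171) and the repressor Klf3 at -0.77 (-1.32 to -0.23, adjusted p = 0.187). Cmklr1, the chemerin receptor, lay at -1.30 with a wide interval (-2.70 to 0.09), as 5Aza LCA 4 read 4.95 against 7.19 and 7.04. The others were Dok4 at -0.66, Zfp46 at -0.56 and Spry2 at -0.49. In the fit without saline LCA, Tmem184b alone of the 9 was called lower, against 1.13% of all genes.

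Some genes that ligation moved under saline lay close to the saline unligated level in 5Aza LCA. By an interval within 1 log2 unit of 0, 439 of the 1221 genes called between saline LCA and saline RCA lay there, which is 36%, against 65.3% of all genes tested and 69.1% of those not called. This is a description only, since both comparisons use the saline RCA arrays. Aspm, which positions the mitotic spindle, read 4.49, 4.36 and 4.39 in saline RCA, 4.21, 4.93 and 4.33 in 5Aza LCA and 6.26, 7.29 and 7.44 in saline LCA. Birc5, an inhibitor of apoptosis needed in cell division, read 4.57, 4.69 and 4.81, then 4.37, 4.55 and 5.03, then 5.77, 7.34 and 7.17. For both, 5Aza LCA overlapped saline RCA and lay below saline LCA, as the choice of these genes fixes. The inhibitory leukocyte receptor Lair1 and the chemokine Cxcl10 lay at 0.15 and 0.22 from saline RCA and at -1.93 and -1.49 from saline LCA. Fgr, a kinase of myeloid cells, Dock10, which activates small GTPases, and the interferon-inducible Ifi204 lay within 0.23 of saline RCA, and Plac9a at 0. Of 19 cell cycle genes limma called none, with 0 at an unadjusted p under 0.05, and their median of 0.01 stood beside 1.10 in saline LCA minus saline RCA. Most of these genes were near the limit of detection in both saline RCA and 5Aza LCA, where small differences are not resolved.

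Counting all single arrays left out, 15 genes kept their call throughout: Aif1, Cd209f, Depp1, Galnt15, Igfbp4, Mrap, Steap4 and Thrsp were higher, and Cfap20dc, Fndc1, Prrt4, Serpina1b, Serpina1d, Serpina1e and Syt7 were lower. Of these not yet described, Depp1, a gene induced by FOXO factors, read 4.66, 4.26 and 4.39 in saline RCA and 7.92, 6.40 and 7.18 in 5Aza LCA (difference 2.73, SE 0.31, adjusted p = 0.00289). Galnt15, a glycosyltransferase, differed by 1.85 (SE 0.24, adjusted p = 0.00549) at a high level, with means of 8.30 ± 0.10 and 10.15 ± 0.17 (SD, n = 3). Igfbp4, a binding protein of insulin-like growth factors, differed by 1.31 (SE 0.17, adjusted p = 0.00549), with means of 7.90 ± 0.18 and 9.21 ± 0.03 (SD, n = 3). In Igfbp4, 5Aza RCA lay between the 2 groups at 8.50, 8.69 and 8.86. The fits without single arrays all tested the genes that passed the detection filter on the full set of arrays. Mrap and Thrsp passed it only through 5Aza LCA and Cd209f through no saline group, so the kept calls of these genes are a description only.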

How the data were processed

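RNA from 12 pools of carotid lumen was read on Illumina bead arrays. The authors deposited a table of non-normalized bead intensity per probe with a detection p-value, exported with GenomeStudio 2010.3 per the submitters' processing notes, and a table of normalized intensity, whose method is not given in the sources used here and which served as an alternative.

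The intensities were background-corrected from the detection p-values, offset by 16, quantile-normalized and taken to log2 (neqc in limma 3.58.1, R 4.3.3). Probes with detection p under 0.05 on all 3 arrays of at least 1 group were kept, 21979 of 45281, and each of 10596 genes was represented by its brightest probe. Of all probes, 34885 had 1 gene symbol in the platform annotation, 18 several and 10378 none, so that the last were not named. limma fitted 1 mean per group over all 12 samples, with Benjamini-Hochberg adjustment over all genes and two-sided tests. A gene with no detected probe in the dimmer group is given as "at least" a fold, taking on each of its arrays the higher of the lowest detected signal and the gene's own. The fit was tested on simulated data.

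Named genes are the 12 largest called increases and decreases, up to 4 called members of each list, the 9 genes recalled from the study, and the 8 near-baseline genes that ligation moved most under saline. Members and lists were chosen with earlier results of these data known. The 12 samples lay on 2 microarrays whose assignment is not given, so this batch was not tested. Alternatives covered background, scaling, filter, probe choice, the variance model, the samples fitted and each array left out. Figures used matplotlib 3.10.9.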

Additional observations from a re-analysis of the deposited data

Results flagged for a closer look

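Probes without a single gene symbol were not part of the gene counts, and they too carried a difference between 5Aza LCA and saline RCA. In a fit over all 21979 kept probes, limma called 143 at adjusted p under 0.05, and 16 of these were among the 3829 probes without a single symbol. Of the 16, 14 were higher in 5Aza LCA and 2 lower. They remain unnamed here.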

How the results depend on the processing

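All 94 genes kept their direction in every alternative, 15 kept the call with each array left out, and 6 kept it in every alternative (Aif1, Depp1, Prrt4, Serpina1b, Serpina1d and Syt7). Against 94 calls, with 59 higher and 35 lower, no filter on detection gave 58, with 32 higher, a trended robust prior 146, with 97 higher, and array weights 315, with 192 higher and 123 lower. Fitting only the 6 arrays gave 201, with 130 higher and 71 lower, and held 80 of the 94. Leaving out the saline LCA group gave 314, with 194 higher and 120 lower. Requiring a change beyond 1.5-fold gave 6, with 2 higher and 4 lower. The title number as a block gave 46 calls with 6 arrays, 32 higher and 14 lower, and 49 with 12 arrays, 33 higher and 16 lower. The compared groups came from different mice, and same-numbered arrays deviated together at correlations of -0.012 to 0.043. Left and right arteries of 1 treatment may share mice, which the labels do not state by number: same-numbered correlations were 0.033 to 0.056 in saline, where every array correlated best with its own number, and -0.028 to 0.018 in 5Aza. Leaving out 1 array gave 18 to 438 calls, 10 to 263 higher and 7 to 175 lower, with the fewest without saline RCA 1 or 2 and the most without saline LCA 1. Apart from the fewer arrays in these fits, the cause was not tested. The other settings gave 80 to 110 calls. Median scaling moved the median of all genes to -0.12, against -0.01. Levels near 4.2 lie at the floor, where differences are not resolved.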
